A study of Mus musculus with 38 samples.

Results

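Peaks of H3K4me3, histone H3 trimethylated at lysine 4, were compared between the livers of male and female mice. The members were all peaks of the deposited male H3K4me3 list (16018) and of the deposited female list (18942), together 34960 of the 384017 peaks in the lists of all 6 histone marks of the study. The mice were of the outbred CD-1 stock and 8 weeks old, and the labels name no treatment or genetic change in either sex. Chromatin from liver tissue was immunoprecipitated with the same anti-H3K4me3 antibody in both sexes. The labels give 4 male and 3 female libraries, but the files within a sex were identical, so each sex was represented by 1 pooled list. No spread between animals could be computed and no test was run. Intervals are exact binomial 95% intervals and cover counting error only.

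H3K4me3 is written by the SET1 and MLL methyltransferase complexes on nucleosomes around the starts of active genes, and it is densest where the promoter is rich in CpG dinucleotides. The start itself is usually depleted of nucleosomes, so the mark flanks it and is strongest on the first nucleosomes of the transcribed side. In rodent liver many genes of steroid, drug and lipid metabolism differ between the sexes because males release growth hormone in pulses and females release it almost continuously, a difference read by the transcription factor STAT5. In whole liver, marking of fewer cells and weaker marking per cell cannot be told apart.

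Overlapping peaks of both lists (1 bp or more) were joined into 19153 regions on the 19 autosomes, of which 14233 were shared. Tags are the sequenced reads counted in a peak, 5087982 for males and 5084261 for females. The tag share of a region is its tags over all tags of that list, and the tag-share ratio is male over female. A shared region with at least 50 tags in both lists together is called male-higher at a ratio of 2 or more and female-higher at 0.5 or less.

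Peaks were given to genes through promoter sequences. Reads of 35 bases from an IgG control library, which carry mm9 positions, were matched without mismatch to RefSeq promoter windows of 300 bases, 250 before and 50 after a start. This placed the starts of 12598 of 25748 autosomal genes (48.9%), and a peak at any other gene is described by position. Of 8191 protein-coding genes so placed, 4738 had their start in a peak of both lists, 215 in a male peak alone, 124 in a female peak alone and 3114 in no peak. The hepatocyte markers were the check of the tissue. All 8 placed members (Alb, Apoa1, Apoa2, Apob, Fga, Fgb, Tat and Tdo2) lay in shared regions, with 341 to 2980 tags in each list. Of the placed markers of other liver cells, the Kupffer cell genes Clec4f and Cd68, the endothelial gene Tek, the stellate gene Acta2, the bile duct genes Spp1 and Cftr and the lymphocyte genes Cd79a and Ptprc lay in no peak. Stab1, Lrat and Epcam had peaks of 36 to 104 tags a list, and Stab2 a peak of 32 tags in the male list alone. The neuronal gene Neurod1 had none.

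Promoters whose H3K4me3 differed between the sexes held less CpG in the median than promoters marked alike, and examples follow. The lines below give the 200 bases before the start of 3 genes marked more in males (Hsd3b5, Cyp2d9 and C6), 3 marked in the female list alone (Cyp2b13, Cyp3a44 and Slc22a26), and Stat5b, marked alike in both, for contrast. They are RefSeq sequences of build GRCm38.p6, 5′ to 3′ on the gene's strand, with each CpG in capitals. Their positions belong to that build and are not comparable with the mm9 positions of the peaks.
Hsd3b5 (chr3:98645535-98645734, minus strand): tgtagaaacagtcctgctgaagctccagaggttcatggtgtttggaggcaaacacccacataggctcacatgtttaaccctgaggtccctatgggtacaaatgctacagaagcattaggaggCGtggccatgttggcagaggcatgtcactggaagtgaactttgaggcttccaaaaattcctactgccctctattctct
Cyp2d9 (chr15:82452177-82452376, plus strand): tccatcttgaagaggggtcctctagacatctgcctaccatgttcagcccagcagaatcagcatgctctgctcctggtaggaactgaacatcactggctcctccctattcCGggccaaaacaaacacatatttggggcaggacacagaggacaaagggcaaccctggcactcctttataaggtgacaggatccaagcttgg
C6 (chr15:4727010-4727209, plus strand): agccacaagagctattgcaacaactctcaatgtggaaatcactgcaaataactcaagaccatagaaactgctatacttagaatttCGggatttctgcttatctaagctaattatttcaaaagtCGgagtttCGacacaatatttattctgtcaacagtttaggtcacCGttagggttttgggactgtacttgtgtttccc
Cyp2b13 (chr7:26061295-26061494, plus strand): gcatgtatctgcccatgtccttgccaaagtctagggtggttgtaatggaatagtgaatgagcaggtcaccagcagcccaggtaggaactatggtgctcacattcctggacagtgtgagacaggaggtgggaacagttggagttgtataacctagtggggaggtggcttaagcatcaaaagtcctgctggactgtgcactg
Cyp3a44 (chr5:145805875-145806074, minus strand): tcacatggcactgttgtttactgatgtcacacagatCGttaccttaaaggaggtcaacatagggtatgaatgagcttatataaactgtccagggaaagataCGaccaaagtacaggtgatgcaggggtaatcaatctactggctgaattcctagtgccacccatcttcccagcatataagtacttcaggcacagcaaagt
Slc22a26 (chr19:7802668-7802867, minus strand): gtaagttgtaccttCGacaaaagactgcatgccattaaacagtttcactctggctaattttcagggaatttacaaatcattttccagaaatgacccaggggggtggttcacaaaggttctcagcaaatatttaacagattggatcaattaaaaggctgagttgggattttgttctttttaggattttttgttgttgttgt
Stat5b (chr11:100850582-100850781, minus strand): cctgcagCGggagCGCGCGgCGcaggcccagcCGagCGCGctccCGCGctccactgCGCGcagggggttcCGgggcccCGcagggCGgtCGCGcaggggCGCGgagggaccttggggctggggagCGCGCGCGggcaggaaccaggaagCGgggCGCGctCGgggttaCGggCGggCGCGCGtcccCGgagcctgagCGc
The Cyp2b13 stretch holds 0 CpG, those of Hsd3b5, Cyp2d9 and Slc22a26 hold 1 each, Cyp3a44 holds 2, C6 holds 4 and Stat5b holds 34.

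Over the placed promoter windows of 300 bases, the CpG ratio (CpG counted over that expected from the C and G content) had a median of 0.791 in the 5281 windows of shared regions within 2-fold. It was 0.368 in the 113 windows of male-higher regions, 0.397 in the 55 of male-only peaks, 0.447 in the 31 of female-higher regions and 0.367 in the 118 of female-only peaks. Windows in no peak had 0.203 (n = 6474), and all 31396 autosomal windows of the table had 0.389. Most of the examples above are more extreme than these medians. Cyp2d9, Hsd3b5, Cyp2b13, Slc22a26 and Cyp3a44 had 0.056 to 0.143, C6 had 0.466 and Stat5b had 1.01. A ratio of 0.5 or more was reached by 84.1% of windows in shared regions within 2-fold (4440 of 5281), by 38.9% in male-higher (29.9 to 48.6) and by 48.4% in female-higher regions (30.2 to 66.9). Over all windows of the table the share was 42.4%, so the regions past 2-fold were near that level and below shared regions within 2-fold. Some windows lie in the same region and some belong to the same gene, so they are not independent.

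The share was lower past 2-fold in each of 4 classes of tags, and the gap was widest among the most strongly marked regions. Among regions of 1000 tags or more, 83.1% of 1919 windows within 2-fold reached the ratio of 0.5, against 15.2% of 33 windows past 2-fold in either direction (intervals 81.3 to 84.7 and 5.11 to 31.9). Among regions of 500 to under 1000 tags the shares were 88.3% of 2115 and 42.3% of 26. From 200 to under 500 tags they were 82.1% of 962 windows against 20 of 40. From 50 to under 200 tags they were 66.5% of 284 and 51.1% of 45, and these intervals overlapped.

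**Figure D1:**
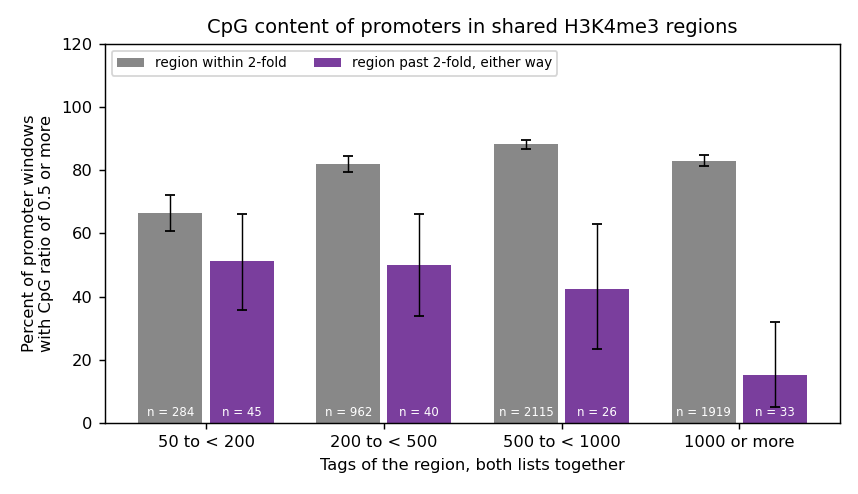
The share of promoter windows with a CpG ratio of 0.5 or more (vertical axis, percent) by the tags of their shared region in both lists together (horizontal axis), for regions within 2-fold (grey) and past 2-fold in either direction (purple). Bars start at 0, error bars are exact 95% binomial intervals, and the purple bar falls to 15.2% in regions of 1000 tags or more, where the grey bar stands at 83.1%.

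Short motifs were searched in the same windows. The palindrome TTCNNNGAA, the core of STAT5 sites, was searched on both strands and was in 8.35% of all autosomal windows, 7.97% of male-higher windows (9 of 113), 6.45% of female-higher (2 of 31), 10.9% of male-only (6 of 55) and in 13 of 118 female-only windows. The letters TATAAA were in 13.6% of all windows, 6.91% of those in shared regions within 2-fold, 15.0% in male-higher regions (17 of 113) and in 11 of 55 windows of male-only peaks. They were in 12.9% of windows in female-higher regions (4 of 31) and 12.7% in female-only peaks (15 of 118). Windows in no peak had the highest share, 21.3%. The clock E-box CACGTG was in 7.14% of all windows, 10.7% of those in shared regions within 2-fold, 5.31% in male-higher regions (6 of 113) and 10.9% in male-only peaks (6 of 55). It was in 6.45% of windows in female-higher regions (2 of 31) and 5.93% in female-only peaks (7 of 118). These are matches of letters within 300 bases and not measured binding.

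Genes known to be more active in male mouse liver carried more H3K4me3 in the male list. Of the 29 genes listed, 18 were placed, and 13 of these lay in shared regions, all 13 with a ratio above 1 (except that Egfr was at 0.836 per kb of peak width) and a median of 2.53. Of the 13, 8 were male-higher and 0 female-higher. Over all 14203 shared regions with at least 50 tags, 3.77% (536) were male-higher and 1.16% (165) female-higher, and the median ratio over all shared regions was 1.03. A further 3 genes, C6, Mup21 and Fitm1, had a peak in the male list alone, and the placed starts of Ugt2b38 and Moxd1 had no peak.

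Hsd3b5, a hydroxysteroid dehydrogenase made in adult male liver, had 1012 tags in the male list and 36 in the female list. Its region, chr3:98447341-98450502, was 3162 bp wide in the male and 777 bp in the female list. The tag-share ratio was 28.1 (interval 20.2 to 40.3), the largest among shared regions of at least 50 tags. Cyp2d9, a steroid hydroxylase and a classical male marker, had 1065 and 123 tags at chr15:82281835-82286788, a ratio of 8.65 (7.17 to 10.5). Keg1, a glycine acyltransferase relative, had 653 male and 115 female tags at chr19:12769954-12773934, a ratio of 5.67. In these 3 regions the male list was both wider and denser in tags.

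Slco1a1, an uptake transporter of bile acids and steroids, had 1768 and 461 tags (ratio 3.83), and Mup3, a major urinary protein, had 1457 and 405 (3.60). Susd4, a regulator of complement, had 144 and 46 tags (3.13). Ugt2b1, which glucuronidates steroids, had 1313 and 518 (2.53). C8a, a subunit of the complement membrane attack complex, had 1106 and 454 (2.43). The remaining shared members stayed under 2-fold, from 1.88 at C8b down to 1.30 at Bcl6, a transcriptional repressor whose male peaks covered 15296 bp. C6, another component of the membrane attack complex, had 388 male tags at chr15:4676837-4680616 and no female peak there. Several of these genes belong to families of near-identical copies (Cyp2d, Mup, Hsd3b, Ugt2b), among which short reads may be shared or dropped.

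Genes known to be more active in female liver showed the reverse, mostly as peaks missing from the male list. Of 39 genes listed, 18 were placed. Of these, 9 had a peak in the female list alone, 5 lay in shared regions, all 5 with a ratio under 1 and a median of 0.492 (per kb of peak width Abcc4 was at 0.994 and Lifr at 0.934, and on the per-kb share, tags per kb over the sum of tags per kb of the list, at 1.12 and 1.05), and 4 (Cyp3a41b, Sult1e1, Fmo4 and Acot3) had no peak. Over all placed protein-coding genes, 124 of 8191 had a start in a female peak alone. The lists of male and female genes were chosen with earlier results of these data known, so their direction is not independent evidence.

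The 9 genes marked in the female list alone were Slc22a26, an organic anion transporter, with 313 tags, Hao2, a peroxisomal hydroxyacid oxidase, with 254, and Fmo2, a flavin monooxygenase, with 176, together with 6 cytochrome P450 genes. The P450 genes were Cyp2b10 with 200 tags, Cyp2b13 with 192, Cyp3a16 with 191, Cyp3a44 with 169, Cyp2c69 with 167 and Cyp2a4 with 160. Their peaks were 1789 to 3813 bp wide. In the authors' deposited table the log2 ratio of male over female signal at these peaks ran from -3.77 at Cyp2a4 to -1.05 at Fmo2, so the deposited signal was lower in males at all 9. These ratios were deposited with the same peak lists, so they are not independent of the missing peaks. The P450 genes also have near-identical copies.

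Among the shared female genes, Prlr, the prolactin receptor, had 541 male and 1115 female tags at chr15:10106718-10110312, so the female share was 2.06 times the male. Vldlr, a lipoprotein receptor, had 168 and 341 tags, and the female share was 2.03 times the male. Abcc4, an export pump, had 31 and 73 tags and a female share 2.36 times the male, but its female peak was 1522 bp wide against 650 bp, and the authors' deposited table gives it log2 ratios of -0.02 (male peak) and -0.19 (female peak). Acot4 (0.606) and Lifr (0.789) stayed within 2-fold.

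**Figure D2:**
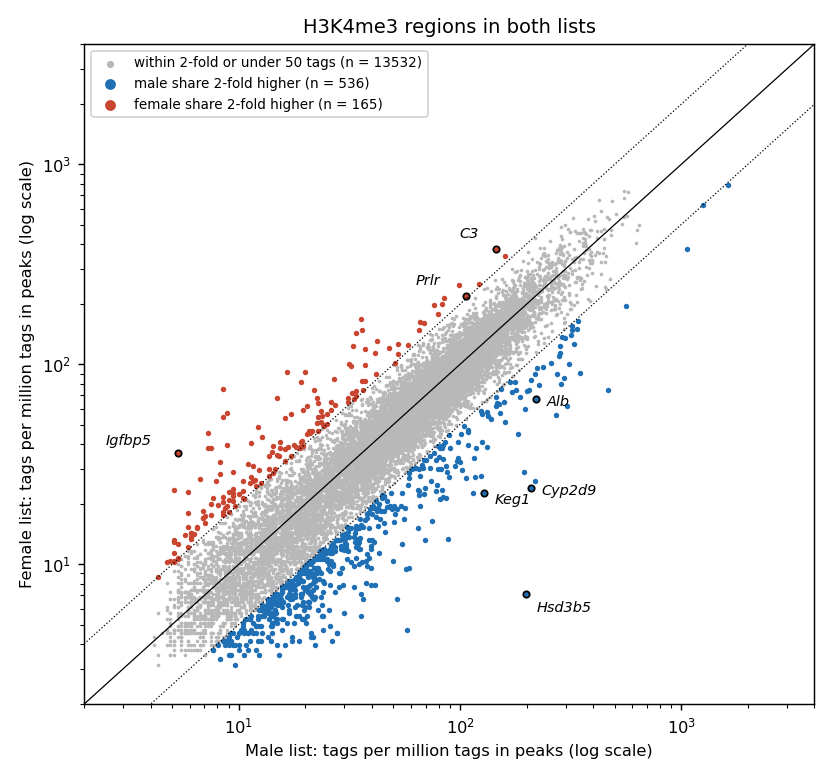
Tags per 1000000 tags in peaks in the male list (horizontal) and the female list (vertical), both on log scales, for the 14233 shared regions. Blue points are the 536 male-higher and red points the 165 female-higher regions, dotted lines mark 2-fold, and the circled genes show Hsd3b5 farthest below the diagonal.

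Of the growth hormone pathway, all 10 placed genes of 17 lay in shared regions, with a median ratio of 0.910, and 1 of the 10 was past 2-fold. Over all shared regions with at least 50 tags, 3.77% were male-higher and 1.16% female-higher, so few of any 10 would be past it. The kinase gene Jak2 had 461 and 459 tags, Stat5b 752 and 816 (0.921), Stat5a 298 and 331 (0.900) and the inhibitor gene Socs3 370 and 390 (0.948). At each of these 4 genes the counting interval included 1. Igf1, the main secreted target, had 1832 and 1714 tags (1.07). Prlr was the single member past 2-fold, and Igfals, whose product carries IGF1 in blood, followed with 676 and 1229 tags (0.550). Onecut1, with 1657 and 2757 (0.601), Stat3, with 481 and 615 (0.782), and Bcl6, with 3287 and 2525 (1.30), also had counting intervals off 1. Ghr, Socs2, Cish and Cux2 were not placed.

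Hepatocyte transcription factors lay within 2-fold in all 11 placed cases, with a median of 0.836. Most shared regions did so too: of those with at least 50 tags, 3.77% were male-higher and 1.16% female-higher. Per kb of peak width, Rxra went from 0.831 to 1.21 and Nr1i2 from 0.970 to 1.09. Onecut1 (HNF6) had the lowest ratio of the list (interval 0.565 to 0.639). Foxa2 followed with 1186 and 1730 (0.685), and Hnf4a had 1823 and 2053 (0.887). Nr1h4, the bile acid receptor FXR, was at the other end with 1308 and 823 tags (1.59). The same factors had regions 3013 to 10803 bp wide in the male list.

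The 7 placed clock genes of 16 moved in both directions. Bhlhe41, a repressor of clock targets, had 445 and 147 tags (ratio 3.03), and Dbp, a clock output factor, had 1065 and 423 (2.52). Clock had 426 and 262 (1.63). Arntl, the partner of Clock, had 474 and 717 (0.661), and Per1 had 118 and 172 (0.686, but 1.12 per kb of peak width). The labels used here give no time of day for either sex, so its part was not tested. The 4 placed housekeeping genes ran from 0.997 at B2m to 1.21 at Polr2a.

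The hepatocyte marker genes differed among themselves, with 3 of 8 male-higher and 0 female-higher. Over all shared regions with at least 50 tags, 3.77% were male-higher and 1.16% female-higher. Alb, serum albumin, had 1117 male and 341 female tags (ratio 3.27, 2.90 to 3.71) and Tdo2, which degrades tryptophan, had 1613 and 714 (2.26). Fgb, the fibrinogen beta chain, had 1464 and 696 (2.10), while the alpha chain gene Fga had 1603 and 1047 (1.53). Apob had 1895 and 1991 (0.951) and Apoa1 2218 and 2980 (0.744). At Alb the male region was 6761 bp wide and the female 3634 bp, and the authors' deposited table gives log2 ratios there of -0.28 for H3K27ac, 0.09 for H3K4me1 and 0.82 for H3K36me3.

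**Figure D3:**
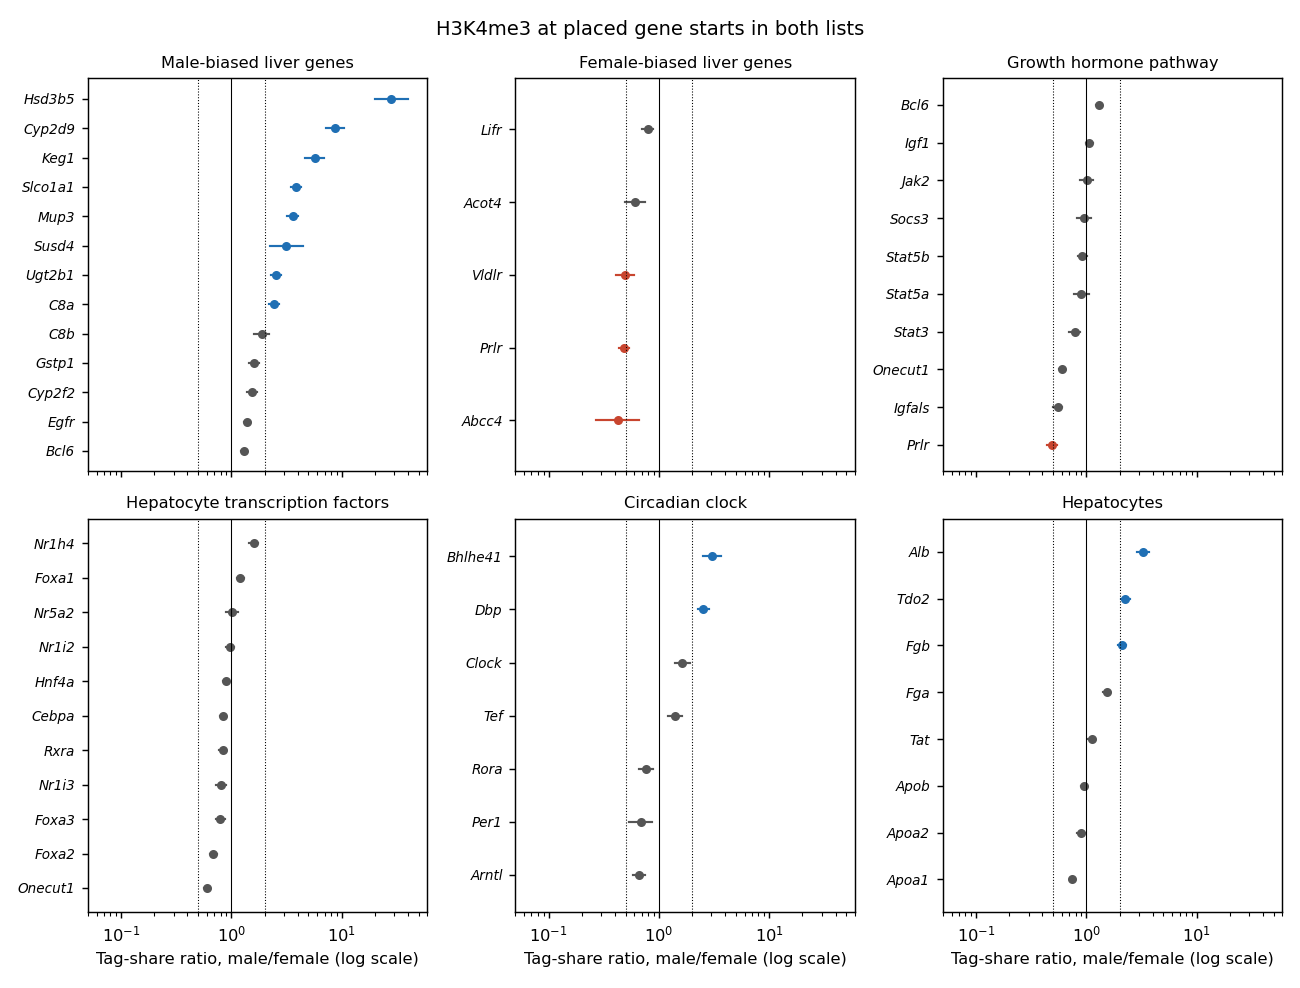
Tag-share ratio, male over female (horizontal, log scale), of each listed gene whose placed start lay in a shared region. Points are ratios, bars are exact 95% counting intervals, dotted lines mark 2-fold, blue and red mark genes past it, and the male-biased list lies to the right of 1 and the female-biased list to the left (Egfr changed side per kb of peak width, and Egfr, Abcc4 and Lifr did on the per-kb share).

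Other genes past 2-fold with a placed start, picked after their values were seen, included metabolic and complement genes. They are examples from 85 male-higher and 34 female-higher regions with a placed protein-coding start, and do not describe the whole class. Among complement genes outside the lists, C9, the last component of the attack complex, had 1038 and 380 tags (ratio 2.73). C3, the central component, went the other way with 740 and 1930 tags, the female share being 2.61 times the male. Akr1c6, a hydroxysteroid dehydrogenase, had 1670 and 645 (2.59). Aldh1a1, which makes retinoic acid, had 1441 and 581 (2.48). On the female side were Agxt, which detoxifies glyoxylate, with 429 and 1092 tags (female share 2.55 times the male), and Igfbp1, an IGF carrier, with 266 and 643 (2.42).

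The shared regions with the most unequal tags were mixtures of gene starts and unplaced sites. Of the 10 with the highest male share, 4 held a placed start: Hsd3b5, Cyp2d9, Hsd3b2 (995 and 147 tags, ratio 6.76) and Sucnr1, the succinate receptor gene (135 and 21 tags, 6.42). A further 2 lay on chromosome 2 beside Cwc22. The remaining 4 were chr12:20235551-20240361 with 293 and 24 tags (12.2), chr4:154289095-154291315 between the starts of Prxl2b and Tnfrsf14 with 263 and 34 (7.73), chr10:120925150-120928359 with 447 and 68 (6.57), and chr12:118896358-118898846 with 181 and 28 (6.46). Tags were counted within each list's own peaks, so a narrower peak holds fewer. The authors' deposited table gives these 10 log2 ratios from 0.52 (female peak of chr12:20235551-20240361) to 3.55 (male peak of Hsd3b5). At chr12:20235551-20240361 the male peak had 1.26, and at chr12:118896358-118898846 the ratios were 1.14 (male peak) and 0.82 (female peak).

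Of the 10 with the highest female share, 2 held a placed start. These were Igfbp5, an IGF binding protein gene, with 27 and 184 tags, the female share 6.82 times the male, and Lrtm1, a leucine-rich repeat gene, with 45 and 291 (6.47 times). The region with the highest female share was chr17:28582545-28585945, 43 and 384 tags (8.94 times). It lies between the starts of Rpl10a and Lhfpl5, a stretch in which RefSeq lists Fkbp5 among 6 genes. Others lay at chr10:84220127-84222353, 1333 bp from a start of Rfx4 (43 and 276 tags, 6.42 times), at chr15:44578671-44580711 (37 and 230, 6.22 times), and at chr1:36837036-36839775 between Zap70 and Vwa3b (84 and 468, 5.58 times). A region between the placed starts of Aoc1, chr6:48851682-48853467, had 37 and 194 tags (5.25 times). The others were chr4:138013745-138016577 (38 and 193, 5.08 times), chr10:127303229-127305614 between Rdh16 and Rdh7, retinol dehydrogenase genes (181 and 854, 4.72 times), and chr19:39585081-39588915 in the Cyp2c cluster, where RefSeq lists Cyp2c39 and Cyp2c38 between the flanking starts (101 and 467, 4.63 times). The authors' deposited table gives these 10 log2 ratios from -2.25 (male peak of Lrtm1) to -0.86 (female peak of chr4:138013745-138016577). At Igfbp5, where the male peak was 622 bp and the female 2345 bp wide, they were -1.21 (male peak) and -1.48 (female peak).

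Several differences lay close together in a stretch of chromosome 2 around Cwc22, a splicing factor gene. A male-only peak of 333 tags lay at chr2:77707467-77709739. The region chr2:77734179-77750932 had 2379 and 377 tags in 1 male and 3 female pieces (ratio 6.31). The Cwc22 start itself lay in chr2:77781476-77790073 with 6393 and 3170 tags (2.02). The region chr2:77807851-77834054 was the widest male peak of all, 26204 bp, and was cut into 6 pieces in the female list, with 5385 and 1926 tags (2.79). Farther on, chr2:77857726-77865340 had 1113 and 132 (8.43), with peaks of 7615 and 2098 bp. The authors' deposited table gives this last region log2 ratios of 1.40 (male peak) and 1.32 (female peak). In the authors' deposited table the H3K36me3 log2 ratio at these 5 regions was 3.37 to 3.70, and H3K27me3 was lower in males (-1.42 to -0.73). The male-only peak, chr2:77734179-77750932 and the Cwc22 region had the same H3K27me3 value (-1.08), so the 5 regions are not separate readings. Density of control IgG reads, from 1 male library, was 1.14 to 2.26 times the autosomal mean at the same 5 regions, and its part in the difference was not tested.

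Most peaks found in 1 list alone were weak. The male list had 1435 male-only peaks (8.96% of its peaks, interval 8.52 to 9.41) and the female list 3485 female-only peaks (18.4%, 17.9 to 19.0). With the female list shortened by score to the length of the male list, the order turned, to 2018 male-only and 1356 female-only peaks. Under 50 tags were 57.4% of the male-only and 75.5% of the female-only peaks, and they held 1.63% of male and 3.15% of female tags in all. The false discovery rate that the authors gave a peak had a median of 82.2% in male-only and 35.3% in female-only peaks, against 2.40% and 1.85% in the shared peaks of the same lists. Within 5 kb of a peak of the other list lay 26.8% of male-only and 25.2% of female-only peaks.

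Strong peaks of 1 list were set beside the deposited ratios. Of 144 male-only peaks with 100 tags or more, the authors' deposited table gives 97 (67.4%) a log2 ratio of 1 or more towards males, and 4 (2.78%) a ratio within 0.5 of zero. Of 173 female-only peaks with as many tags, the deposited table gives 54 (31.2%) a ratio of 1 or more towards females and 64 (37.0%) a ratio within 0.5 of zero. Serpina11 is an example of the latter, with a female-only peak of 214 tags at chr12:105225977-105228699 and a deposited log2 value of 0.01 by the authors' deposited table.

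The male-only peak with most tags was chr19:23135714-23139429, 789 tags, between the starts of Trpm3 and Smc5, where RefSeq lists Klf9, a hormone-responsive transcription factor gene. Next came chr3:138039471-138044047 with 723 tags, in the alcohol dehydrogenase cluster between Adh6a and Adh4. C6 followed, then chr17:44207107-44209072 between Rcan2 and Enpp4 with 348 tags, and then the peak beside Cwc22. The authors' deposited table gives all 5 a log2 ratio of 1.99 to 4.45.

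Among female-only peaks, chr17:39979496-39986107 had by far the most tags, 7478, but control IgG reads there were 16.1 times as dense as the autosomal mean, and the authors' deposited table gives it no sex call. Another was chr6:51651244-51654530 with 647 tags, between Snx10 and Hoxa5. The peak at chr5:122466239-122470076 had 592 tags and lay between Pheta1 and Pptc7, a stretch of 7 listed genes that holds Cux2, a transcription factor gene known from female liver. The peak at chr11:115322966-115325887 had 586 tags and held the placed start of Gm11695. The authors' deposited table gives these 3 a log2 ratio of -3.90 to -2.29.

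Male peaks were wider and female peaks more often short. The median peak was 1803 bp in the male and 1474 bp in the female list, and 16.9% of male against 29.1% of female peaks were under 1 kb. Within shared regions the summed width differed less, with medians of 1938 and 1850 bp and a median ratio of 1.05. Past a ratio of 1.5 were 707 regions wider in males (4.97%) and 344 wider in females (2.42%). The region with the largest width ratio was chr12:20235551-20240361, 4811 bp in the male and 684 bp in the female list. Calcrl, which encodes a receptor for calcitonin-family peptides, came next at 4092 and 895 bp, with 298 and 49 tags, and then chr17:22909679-22915849 at 5818 and 1274 bp. At Calcrl the authors' deposited table gives an H3K27ac log2 ratio of -0.36, towards females. The 3 with the largest width ratio towards females were chr17:28582545-28585945 (865 and 3401 bp), chr4:138013745-138016577 (723 and 2833 bp) and Igfbp5 (622 and 2345 bp).

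Width and tags moved together. Of the 536 male-higher regions, 355 were also at least 1.5 times wider in males, and of the 165 female-higher regions 104 were as much wider in females. Counted as tags per kb of peak width over all tags of the list, 83 regions were male-higher and 50 female-higher, so males held 62.4% of the regions past 2-fold against 76.5% in tag shares. On the per-kb share they were 186 and 20 (90.3% male), a scale that moved the median log2 ratio of all shared regions from 0.04 to 0.16. The authors' deposited table calls 244 of the male-higher regions male and 78 of the female-higher regions female, and calls 0 of either the other way. These calls are not independent evidence. Over shared regions the deposited log2 ratio of the male list and the log2 tag-share ratio had a Pearson correlation of 0.938. A whole counting interval past 2-fold was found for 188 male-higher and 54 female-higher regions.

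The balance between the sexes differed with the number of tags in a region. Shared regions were ranked by tags and divided into 10 classes of equal size. In the class with fewest tags (38 to 118 in both lists) the median ratio was 1.19, and 9.48% were male-higher (135) and 1.48% female-higher (21). In the class with most tags (1404 or more) the median ratio was 0.970, and 2.18% were male-higher (31) and 0.492% female-higher (7). Both shares were thus lower, and the course between was not even. Class 2 had 10.8% male-higher, and class 8 had 0.562%, with 8 male-higher and 7 female-higher regions. The fold enrichment over control that the authors gave each peak also differed, with medians over these regions of 6.35 (male list) and 7.95 (female list) in the lowest class, and 23.8 and 44.9 in the highest. The part of this difference in enrichment in the tag shares was not tested.

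**Figure D4:**
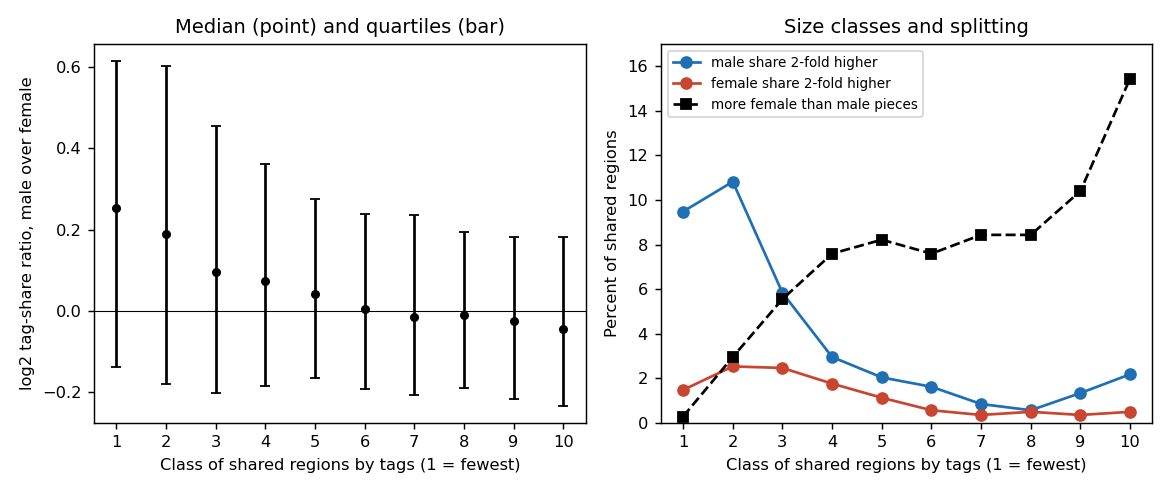
Shared regions in 10 classes of equal size by their tags in both lists together (horizontal axis, 1 = fewest tags). The left panel gives the median log2 tag-share ratio with quartile bars, which falls from 0.25 to -0.04, and the right panel the percent male-higher (blue), female-higher (red) and in more female than male pieces (black), the last rising to 15.4% in the highest class.

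More shared regions were split in the female list than in the male list, but most were split in neither. The female list had more pieces in 1066 shared regions (7.49%, interval 7.06 to 7.93) and the male list in 239 (1.68%, 1.48 to 1.90), and 12825 were 1 peak against 1 peak. Splitting in the female list rose from 0.281% in the class with fewest tags to 15.4% in the class with most. It also rose with width, from 2.14% of regions of 1 to 2 kb to 33.0% of the 94 regions of 8 kb or more. Male-list splitting in the same 2 classes was 0.570% and 9.57%.

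The gaps were small. In the 1017 regions of 1 male peak over 2 female pieces the gap had a median of 82 bp (10th to 90th percentile 16 to 254), less than the DNA of 1 nucleosome. The median tag-share ratio of these regions was 1.09. In 354 of them the placed starts were on 1 strand, and the start fell in the gap in 60 (16.9%), before it in 120 and after it in 174. The downstream piece held more tags in 253 (71.5%). The regions with most female pieces after the one near Cwc22 were chr1:186552932-186558569, between Dusp10 and Mtarc1 where RefSeq lists Hlx, a homeobox gene (4 pieces, 270 and 254 tags), and that of Id2, an inhibitor of helix-loop-helix factors (3 pieces, 2453 and 2399 tags). Those with most male pieces had 3 each, at chr7:29160027-29168773 where RefSeq lists Zfp36 (1827 and 2415 tags), chr11:74462020-74467482 (788 and 985) and chr9:37334695-37339249 (314 and 266). Except near Cwc22, these regions had tag-share ratios of 0.756 to 1.18.

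Around starts the 2 lists had nearly the same profile. In 3835 shared regions where the profile could be oriented by a start, the summit lay 212 bp downstream of the start in the male and 228 bp in the female list (medians), and downstream at all in 80.2% and 81.2%. The paired summits lay within 200 bp of each other in 79.0%. The upstream edge was at -776 bp in males and -720 bp in females, and the downstream edge at 1284 and 1240 bp. The male upstream edge was the farther one in 66.3% of regions and the male downstream edge in 58.9%.

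Regions without a placed start held most of the differences. Of 9139 such shared regions 4.65% were male-higher and 1.40% female-higher. Of 4349 regions with protein-coding starts on 1 strand the shares were 1.93% and 0.782%. Of 321 regions with starts on opposite strands, 1 was male-higher and 0 female-higher, and these were the widest, 2624 bp in males and 2522 bp in females (medians). A placed start was present in 35.8% of shared, 20.7% of male-higher, 22.4% of female-higher, 4.67% of male-only and 3.73% of female-only regions. About as many starts were not placed as were, so these shares are lower bounds.

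Of the other histone marks, read with other antibodies, H3K27ac, H3K4me1 and H3K36me3 had medians on the same side as H3K4me3 at male-higher and female-higher regions. In the authors' deposited table H3K27ac, a mark of active promoters and enhancers, had a median log2 ratio of 0.12 over 442 male-higher regions, -0.22 over 141 female-higher regions and 0.04 over 13168 shared regions. For H3K4me1, a mark of enhancers and promoter flanks, the authors' deposited table gives medians of 0.28, -0.27 and 0.04. For H3K36me3, which follows transcription through gene bodies, the authors' deposited table gives 0.12, -0.10 and 0.03. The medians of H3K9me3, another mark of the study, lay on the opposite side, but over few regions. The authors' deposited table gives -0.16 over 55 male-higher, 0.66 over 10 female-higher and 0.15 over 611 shared regions. In the 292 male-higher regions without an H3K4me3 call the authors' deposited table gives an H3K27ac median of 0.01, and in the 87 female-higher regions without one an H3K36me3 median of 0.07 (16 regions with a value). The corresponding medians with a call were 0.23 and -0.18 in the authors' deposited table. The libraries of different marks may come from the same animals.

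H3K27me3, the mark of Polycomb silencing, had a median towards males over female-higher regions. The authors' deposited table gives a median log2 ratio of 0.16 over 52 female-higher regions, -0.08 over 151 male-higher regions and -0.07 over 2544 shared regions. Among the female-higher regions it was 0.65 in the 23 with a female H3K4me3 call and 0.03 in the 29 without, by the authors' deposited table. It calls 17.3% of those female-higher regions male for H3K27me3 and 0.786% of the shared ones. Of the 9 listed female genes with a female-only H3K4me3 peak, 7 had an H3K27me3 ratio in the authors' deposited table, from 0.94 at Cyp3a16 to 2.48 at Slc22a26, all towards males. The same table gives all 9 an H3K27ac ratio towards females, from -0.61 at Fmo2 to -4.88 at Cyp3a16. Over all female-only peaks with a ratio in that table, 39.5% of 1044 were above 0 for H3K27me3 and 38.2% of 1740 for H3K27ac. The gene list was chosen with earlier results of these data known. Of the 160 female-only peaks that the authors' deposited table calls female, 38 overlapped a male and 13 a female H3K27me3 island, but of all 3485 female-only peaks 879 overlapped a male and 873 a female island. Of the 485 male-only peaks it calls male, 53 overlapped a male and 66 a female island. Of all 1435 male-only peaks 319 overlapped a male and 362 a female island, a similar balance.

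**Figure D5:**
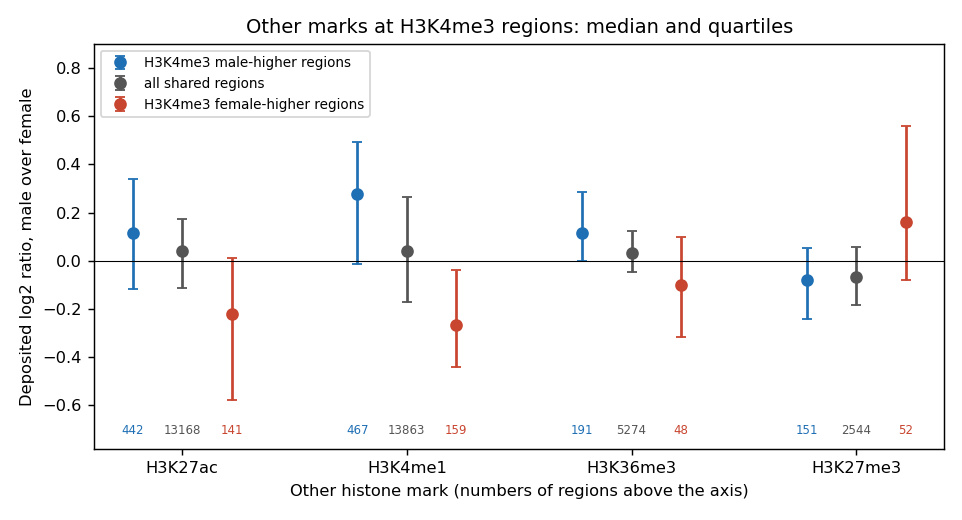
Deposited log2 ratio, male over female (vertical axis), of 4 other marks over H3K4me3 male-higher regions (blue), all shared regions (grey) and female-higher regions (red). Points are medians, bars run from the lower to the upper quartile over regions, and the red H3K27me3 point stands at 0.16 while the red points of the other 3 marks lie below 0.

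The split between directions varied among chromosomes. The share of shared regions that were male-higher ran from 1.56% on chromosome 11 to 6.42% on chromosome 16. On chromosome 11, 18 regions were male-higher and 19 female-higher. It was the only autosome on which female-higher regions were more numerous.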

How the data were processed

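H3K4me3 ChIP-seq libraries of mouse liver (4 male, 3 female) were used as 1 pooled list a sex, because the deposited files of a sex were identical. Bowtie and mm9 are named in the submitters' processing notes, which also name SICER 1.1 for island marks. The column names of the H3K4me3 lists are those of MACS peaks, per the file headers, with the caller's version not given in the sources used here. Tag counts per peak were deposited by the authors as raw whole numbers. The fold enrichment ratio over control, the false discovery rate in percent and the score (minus 10 times log10 p) are the authors' own, per the file headers. The deposited log2 sex ratio, p-value and call are the authors' (absolute log2 of at least 1 with p under 0.001), with the normalisation not given in the sources used here. Those p-values compare pooled libraries.

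Peaks sharing 1 bp were joined with networkx, and counts, ratios and exact Clopper-Pearson intervals were computed in Python 3 with numpy, pandas and scipy, tested on simulated data. Precision is set by the tags of each region. The other marks' deposited log2 ratios were averaged over their peaks overlapping a region. IgG reads of 1 male library placed the gene starts. Members and gene lists were chosen with earlier results of these data known. Named were the 5 sex-only peaks with most tags in each sex, the 10 shared regions with the largest tag-share ratio and the 3 with the largest width ratio in each direction, the 3 with most pieces in each sex, and gene-list members. Alternatives changed the overlap rule, list length, false discovery rate, centring, width scaling, minimum tags and thresholds. The sex chromosomes were not analysed here. One of the named female-only peaks is not reported here.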

Additional observations from a re-analysis of the deposited data

How the results depend on the processing

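The female list, shortened to the length of the male list by score, kept 1356 female-only peaks, while the male-only count became 2018. Keeping only peaks with a false discovery rate of 1% or less left 146 male and 231 female peaks, with 138 male-only, 223 female-only and 8 shared. Of those shared, 0 were split either way, 1 was wider in males and 0 in females, and 1 was male-higher and 0 female-higher. Of 2145 male peaks with a score of 3000 or more, that rate was as high as 3.82% in some. At 1.5-fold, 1617 regions were male-higher and 737 female-higher. With at least 200 tags these were 238 and 103, on the per-kb share 186 and 20, and per kb of peak width over the tags of the list, an alternative chosen after seeing the data, 83 and 50. The male part of all past 2-fold was 76.5% in the main count, 90.3% on the per-kb share, 62.4% per kb, 72.9% when centred on the median region and 68.6% with the shortened list. At a width ratio of 2, 170 regions were wider in males and 71 in females. The other alternatives (50% overlap, partners within 1 kb, no minimum of tags, 1-to-1 regions, centring, and without peaks of high IgG density) kept every count of peaks and regions within 1.5 times. Of 93 named ratios (genes on 2 lists counted for each), 78 had a counting interval off 1. Of these 78, 6 changed side of 1 on the per-kb share, Egfr (0.943), Abcc4 (1.12), Lifr (1.05), Rxra (1.37), Per1 (1.27) and Apoa2 (1.05), and 4 did per kb, Egfr (0.836), Rxra (1.21), Per1 (1.12) and Tat (0.890). No paired analysis was possible because each sex has 1 pooled list and no replicate columns. Of 14233 shared regions, those with few tags have wide intervals, and sizes there are uncertain.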
